A study of Mus musculus with 3 samples.

Results

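The genes described here carry cells through the division cycle and copy their DNA. The list holds 45 genes chosen by name, with earlier results of these data known. Of them 14 act in DNA replication, 5 in kinase control of the G1/S step and 19 in mitosis. The others are 3 D cyclins and 4 cell cycle transcription factors. Probes were assigned to them by RefSeq accession or by the gene name the authors deposited, and 60 of their 61 probes passed the filter for signal above background. In all, 44 of the 45 genes were measured, among 22774 genes and other transcripts tested. The exception was Ccne2, which encodes cyclin E2. Its only probe was not well above background in either channel on any array, and its intensities stayed between 91 and 114 in Cy3 and between 172 and 230.5 in Cy5.

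RNA came from untreated mouse embryos at E8.75, after gastrulation, and 350 ng of total RNA was amplified and coupled to Cy dyes. On each of 3 Agilent arrays the Cy3 channel was labelled wild-type and the Cy5 channel Brpf1-deficient, which gives 3 embryo pairs. Every value is a log2 ratio of Cy5 over Cy3, and values above 0 mean a brighter Cy5 signal. The labels give no strain, no allele and no driver for the deficiency, and do not tell whether single embryos or pools were used. The p-values therefore cover only the spread over 3 pairs. Dyes were never swapped, so genotype and dye cannot be told apart.

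Brpf1, a scaffold of histone acetyltransferase complexes and the gene named in the genotype, was not lower in the Cy5 channel. Its log2 ratio was 2.01 in pair 1, 1.43 in pair 2 and 1.06 in pair 3, and the mean was 1.50 ± 0.19 (SE, n = 3; limma adjusted p = 0.0402). The call was lost with a loess span of 0.02 (adjusted p = 0.272), with the scanner's processed signals (0.240), with the mean of probes (0.0564) and without any 1 of the pairs (limma, 0.0974 to 0.198), while the mean stayed at 1.25 to 1.72 without 1 pair. This goes against the label, and where the probe lies relative to the altered part of the gene is not given in the sources used here, so the probe may check nothing. Directions below are therefore named by channel.

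Cells enter the cycle when mitogens induce D cyclins, which activate Cdk4 and its relatives and release E2F factors from the retinoblastoma proteins. E2F factors then switch on cyclin E and the genes that load and fire replication origins, while the MuvB complex with Mybl2 and Foxm1 switches on the mitotic genes later. In the embryo after gastrulation nearly all tissues divide rapidly, so RNA of these genes is abundant and a whole-embryo sample averages over cells at every stage of the cycle. In such a sample fewer dividing cells and less RNA per dividing cell cannot be told apart.

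Mean log2 ratios of the 44 measured genes ran from -0.32 for Bub1 to 0.21 for Ccne1, with a median of -0.05 against -0.02 over all genes tested. No member passed the test (limma, Benjamini-Hochberg adjusted p under 0.05 over 22774 genes), and the smallest adjusted p was 0.209, for Aurkb. Over all genes 314 passed, 292 higher and 22 lower in Cy5, which is 1.38%, so a count of 0 among 44 does not set the members apart. Most of the 314 lay outside the members' main range of brightness. With a mean log2 intensity of 12 to 16, where 31 members lie, 8 of 7332 genes passed. Over all genes the count was 0 with a loess span of 0.02, with the scanner's processed signals and without any 1 of the pairs, and 634 with median centring. At an unadjusted p under 0.05, 4 members passed, Bub1, Mki67 and Aurkb with values below 0 and Ccne1 with a value above 0. That is 9.09% of the members against 17.2% of all genes.

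The members' 95% confidence intervals bound the size of a difference that 3 pairs could have missed. For 43 of 44 members the interval lay within 1.5-fold in either direction, and for all 44 within 2-fold. Bub1 was the exception at 1.5-fold, with an interval from -0.63 to -0.02 on the log2 scale. These bounds hold for the normalization used here: with median centring 22 of 44 intervals lay within 1.5-fold, with the scanner's processed signals 41 of 44 did and 1, that of Aurkb, passed 2-fold, and without pair 1 or pair 3 the count was 36. They cover the spread between pairs and make no allowance for an effect of the dye that all 3 arrays share. Among the 33 members with a mean log2 intensity of 14 to 17 the SD of the mean ratios was 0.140, against 0.183 for the 3469 genes tested in that range.

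**Figure D1:**
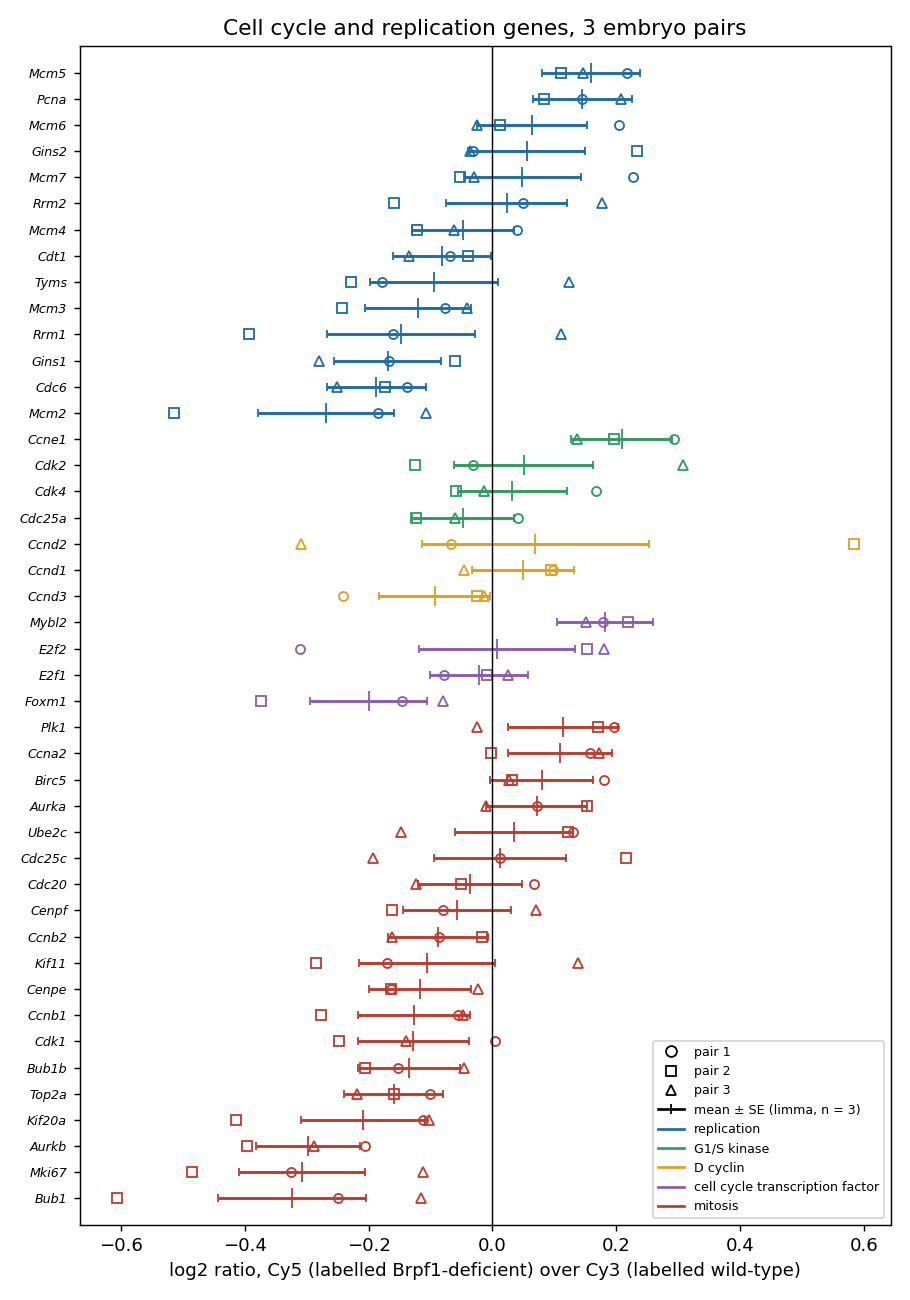
Log2 ratio of Cy5 over Cy3 (x axis) for the 44 measured cell cycle and replication genes (y axis, grouped by role and sorted by mean), with 1 symbol per embryo pair and a bar for the mean ± SE of the limma fit (n = 3). All means lie between -0.32 and 0.21, and for many genes the symbols of the pairs fall on both sides of 0.

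Signs also varied between the pairs. Of the 44 members, 16 (36.4%) were below 0 in all 3 pairs, against 23.6% of all genes, and 5 (11.4%) were above 0 in all 3, against 19.5%. Of the 31 members whose mean log2 intensity lay at 12 to 16, 15 (48.4%) were below 0 in all pairs, against 32.7% of all genes in that range. With a loess span of 0.02 the same 31 members had 7 (22.6%) below 0 in all pairs, against 21.9% of all genes in that range. The difference between these shares was not tested. Across the 44 members Pearson's r was 0.554 between pairs 1 and 2, 0.283 between 1 and 3, and 0.0884 between 2 and 3. Over all genes it was 0.408, 0.327 and 0.151. Genes of 1 array share its dyes and its normalization, so they are not independent replicates.

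The 14 replication genes had a median log2 ratio of -0.06, with medians of -0.05, -0.09 and -0.03 in pairs 1, 2 and 3. Of them 5 were below 0 in all pairs, 2 were above 0 in all pairs, and none reached an unadjusted p under 0.05. The median was -0.03 without pair 2, and 0.21 when arrays were centred on their medians without loess, so its sign depended on the scaling.

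The Mcm2 to Mcm7 proteins form the ring-shaped helicase that unwinds DNA at the fork, and all parts of the ring are needed in equal number. Mcm5 had log2 ratios of 0.22, 0.11 and 0.15 in pairs 1, 2 and 3, above 0 in every pair, with a mean of 0.16 ± 0.08 (SE, n = 3; limma adjusted p = 0.367). Mcm2 was at -0.18, -0.51 and -0.11, below 0 in every pair, with a mean of -0.27 ± 0.11 (adjusted p = 0.305). It was the lowest of the 14 replication genes, and pair 2 stood well below the other pairs; without pair 2 its mean was -0.15. Raw Mcm2 intensities in pair 2 were 27820 in Cy3 and 26030 in Cy5, against 22280 and 42350 in pair 1 and 19710 and 34430 in pair 3. The Cy3 and Cy5 intensities of Mcm5 were 24380 and 63820 in pair 1, 29750 and 45430 in pair 2, and 21420 and 45690 in pair 3.

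The other subunits lay between these. Mcm3 was below 0 in every pair at -0.08, -0.24 and -0.04. Mcm4 (0.04, -0.12 and -0.06), Mcm6 (0.20, 0.01 and -0.02) and Mcm7 (0.23, -0.05 and -0.03) had values on both sides of 0. Their mean ratios were -0.12 for Mcm3, -0.05 for Mcm4, 0.06 for Mcm6 and 0.05 for Mcm7, and none of the 6 subunits passed the test. The subunits thus shared no sign within a pair: in pair 1 Mcm2 and Mcm3 were below 0 and the other 4 above it, and in pair 3 only Mcm5 was above 0.

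Cdc6 and Cdt1 load the helicase onto origins. Cdc6 had ratios of -0.14, -0.17 and -0.25, with a mean of -0.19 ± 0.08 (SE, n = 3; limma adjusted p = 0.317), and a second Cdc6 probe gave -0.09, -0.26 and -0.16. Both Cdc6 probes were below 0 in every pair. Cdt1 was at -0.07, -0.04 and -0.14, closer to 0 but on the same side in every pair. Gins1 and Gins2 encode subunits of the GINS complex, which joins the helicase when origins fire. Gins1 was below 0 throughout at -0.17, -0.06 and -0.28, whereas Gins2 was at -0.03, 0.23 and -0.04, so these subunits were furthest apart in pairs 2 and 3.

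Pcna, the sliding clamp that holds the polymerases on DNA, was above 0 in every pair at 0.14, 0.08 and 0.21, with a mean of 0.15 ± 0.08 (SE, n = 3; limma adjusted p = 0.403). The sign changed with the processing: the mean was -0.00093 with a loess span of 0.02, -0.12 from the scanner's processed signals and 0.58 with median centring. Rrm1 and Rrm2, the subunits of ribonucleotide reductase that supply deoxynucleotides, were at -0.16, -0.39 and 0.11 and at 0.05, -0.16 and 0.18. In both, pair 2 was the lowest and pair 3 the highest. The same held for Tyms, the enzyme that makes thymidylate, at -0.18, -0.23 and 0.12.

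Promoter sequence was examined as a property that the choice of genes did not use. RefSeq windows from 250 bases before to 50 after the start of transcription (GRCm38.p6) were matched for 34 of the 45 genes. No window was matched for Mcm4, Gins1, Gins2, Ccne2, Ccnd1, Ccnd2, Foxm1, Ccna2, Cdc25c, Aurkb and Kif20a. The E2F motif was searched as TTTCCCGC, TTTCGCGC, TTTGCCGC and TTTGGCGC on both strands, with overlapping matches counted. It matched in 6 of 11 replication genes (54.5%), namely Cdc6, Cdt1, Mcm3, Mcm5, Mcm6 and Mcm7, against 2.60% of 27025 genes with a window. Of the 15 mitosis genes with a window only Cdk1 matched (6.67%). The stretches below show matches upstream of the start in 4 replication genes, each 60 bases long and read 5′ to 3′ on the gene's strand, with the E2F match in capitals. Mcm5 lies at chr8:75109334-75109393 (plus strand) and its capitals hold 2 overlapping matches on opposite strands, Mcm6 at chr1:128359719-128359778 (minus), Mcm7 at chr5:138172015-138172074 (minus) and Cdc6 at chr11:98907987-98908046 (plus).
Mcm5: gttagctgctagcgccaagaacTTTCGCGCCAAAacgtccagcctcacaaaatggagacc
Mcm6: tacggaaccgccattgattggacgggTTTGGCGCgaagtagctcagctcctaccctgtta
Mcm7: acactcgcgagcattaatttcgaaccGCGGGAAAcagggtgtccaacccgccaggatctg
Cdc6: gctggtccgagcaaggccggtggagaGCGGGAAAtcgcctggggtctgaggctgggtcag
These 4 genes share the motif and not the sign of their ratios, since Mcm5 was above 0 and Cdc6 below 0 in every pair. The 10 members with an E2F match had a median log2 ratio of -0.02, and the 24 without one had a median of -0.07. Only these exact letters were searched, so a gene without a match may still be a target of E2F factors. Ccne1 and Mcm2 were among the genes without a match.

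The G1/S kinase group had 4 measured genes with a median log2 ratio of 0.04, at 0.10, -0.09 and 0.06 in pairs 1, 2 and 3. Ccne1, which encodes the cyclin E1 that activates Cdk2 at the start of S phase, had the highest mean of all members. Its ratios were 0.29, 0.20 and 0.14, above 0 in every pair, with a mean of 0.21 ± 0.08 (SE, n = 3; limma adjusted p = 0.290). Raw Ccne1 intensities were 25200, 27090 and 22740 in Cy3, while Cy5 gave 70240, 43350 and 48570. A second, dimmer Ccne1 probe gave 0.15, 0.48 and -0.20, so its pairs lay on both sides of 0. Cdk2 itself was at -0.03, -0.13 and 0.31. Cdk4, the kinase partner of the D cyclins, was at 0.17, -0.06 and -0.01, and Cdc25a, the phosphatase that releases the brake on Cdk2, at 0.04, -0.12 and -0.06. None of these 3 kept its sign over the pairs.

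The 3 D cyclins, which link growth signals to Cdk4, did not share a direction. Ccnd1 was at 0.10, 0.10 and -0.05. Ccnd2 had the widest spread of any member, with ratios of -0.07, 0.58 and -0.31 and an SD of 0.462 between pairs. Ccnd3 was at -0.24, -0.02 and -0.01. Their median was 0.05 over the pair means and -0.13 without pair 2, so it changed sign with the pair in which Ccnd2 was highest, and it also changed sign (-0.03) with the scanner's processed signals.

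Among the 4 transcription factors the pairs agreed within Mybl2 and Foxm1 but on opposite sides. Mybl2, which binds the MuvB complex on mitotic promoters, was above 0 in every pair at 0.18, 0.22 and 0.15, with a mean of 0.18 ± 0.08 (SE, n = 3; limma adjusted p = 0.318). A second Mybl2 probe gave -0.16, 0.06 and 0.03. Foxm1, which joins the same complex later in the cycle, was below 0 in every pair at -0.15, -0.37 and -0.08, with a mean of -0.20 ± 0.09 (adjusted p = 0.352). Its second probe gave 0.05, -0.20 and 0.14. For both factors the dimmer probe thus lay on both sides of 0. E2f1, an activator of S phase genes, was near 0 at -0.08, -0.01 and 0.03, and E2f2, a relative with the same role, was at -0.31, 0.15 and 0.18.

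The 19 mitosis genes had a median log2 ratio of -0.11, with medians of -0.08, -0.16 and -0.10 in pairs 1, 2 and 3. Of them 9 (47.4%) were below 0 in all pairs, and 1, Birc5, was above 0 in all pairs. Among the 14 with a mean log2 intensity of 12 to 16, 8 (57.1%) were below 0 in all pairs, beside 32.7% of all genes in that range, and with a loess span of 0.02 the count was 4 (28.6%), beside 21.9%. The median was -0.07 without pair 2, -0.06 with a loess span of 0.02 and 0.01 with arrays centred on their medians, so its sign changed in the last of these.

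Bub1, a kinase of the spindle checkpoint, had the lowest mean of all members. Pair 1 gave a ratio of -0.25, pair 2 of -0.61 and pair 3 of -0.12. The mean was -0.32 ± 0.12 (SE, n = 3; limma adjusted p = 0.275), and -0.18 without pair 2. Its Cy3 intensities were 17610, 23570 and 15620, and its Cy5 intensities 30590, 19900 and 26250. The Bub1 probe was printed many times on each array, and 9, 10 and 10 spots were used. The SD between spots of 1 array was 0.0433, 0.0182 and 0.0298, against an SD of 0.254 between pairs. Spots of 1 array are repeat readings of a single hybridization and say nothing of the spread between embryos. Pair 2 was the lowest of the pairs. Bub1b, which encodes BubR1 of the same checkpoint, was also below 0 throughout at -0.15, -0.21 and -0.05.

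Mki67 encodes the Ki-67 protein that coats mitotic chromosomes and is used as a mark of dividing cells. It was below 0 in every pair at -0.33, -0.49 and -0.11, with a mean of -0.31 ± 0.10 (SE, n = 3; limma adjusted p = 0.249), and its mean was 0.003 with arrays centred on their medians. A second Mki67 probe gave -0.21, -0.33 and -0.10, in the same order of pairs. For the first probe the raw Cy3 intensities were 42430, 54630 and 38770, and the raw Cy5 intensities 81380, 59650 and 74110. Cy5 was the brighter channel on all 3 arrays, over all probes too. Median intensities were 234 to 257 in Cy5 against 142.5 to 155.5 in Cy3. The normalization brings the median log2 ratio of all genes to -0.02 but does not remove the offset evenly at every brightness. Genes with a mean log2 intensity of 15 to 16, where this probe lies, had a median of -0.07, and those over 17 had 0.75.

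Aurkb, the kinase of the chromosomal passenger complex that corrects attachments to the spindle, was below 0 in every pair at -0.21, -0.40 and -0.29. Its mean was -0.30 ± 0.08 (SE, n = 3; limma adjusted p = 0.209). The probe was dim (Cy3 intensities 149, 136 and 162, Cy5 intensities 231, 178 and 217) and was well above background in Cy5 on 1 of 3 arrays. With the scanner's processed signals its mean was -0.78. Aurka, the related kinase of the spindle poles, was at 0.07, 0.15 and -0.01. Birc5, a partner of Aurkb in the passenger complex, was above 0 at 0.18, 0.03 and 0.03, but its dimmest probe gave -0.17, -0.16 and -0.20.

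Of the kinesin motors, Kif20a, which acts at the spindle midzone, was below 0 in every pair at -0.11, -0.41 and -0.10, with a mean of -0.21. Kif11, which pushes the spindle poles apart, was at -0.17, -0.29 and 0.14. Cenpe, a kinesin of the kinetochore, was at -0.16, -0.16 and -0.02, and Cenpf, another kinetochore protein, at -0.08, -0.16 and 0.07. Pair 3 was the highest of the pairs in all 4 of these genes.

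The cyclins and kinase of mitosis were also split. Ccna2 (cyclin A2) was at 0.16, -0.002 and 0.17, whereas Ccnb1 (cyclin B1) was at -0.05, -0.28 and -0.05 and Ccnb2 (cyclin B2) at -0.09, -0.02 and -0.16. Both B cyclins were below 0 in every pair by their brightest probes. The dimmest Ccnb1 probe, however, gave 0.11, 0.74 and -0.48. Cdk1, which these cyclins activate, was at 0.004, -0.25 and -0.14. Plk1, a kinase that promotes entry into mitosis, was at 0.20, 0.17 and -0.03, and Cdc25c, the phosphatase that activates Cdk1, at 0.01, 0.22 and -0.19.

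Top2a, the topoisomerase that untangles sister chromatids, was below 0 in every pair at -0.10, -0.16 and -0.22. Cdc20 activates the anaphase-promoting complex and was at 0.07, -0.05 and -0.12. Ube2c, the ubiquitin-conjugating enzyme of that complex, was at 0.13, 0.12 and -0.15, and its second probe was below 0 in every pair at -0.12, -0.08 and -0.31. None of these genes passed the test.

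The mitosis genes were set apart from the replication genes by their promoters. The cell cycle homology region (CHR), where the MuvB complex binds, was searched as TTTGAA and TTCGAA on both strands with overlapping matches counted, and CCAAT, bound by NF-Y, on both strands. CHR letters were found in 12 of 15 mitosis genes (80.0%) and in 2 of 11 replication genes (18.2%), Mcm2 and Mcm7, against 21.7% of all genes with a window. CCAAT was found in 14 of 15 mitosis genes (93.3%), in 8 of 11 replication genes (72.7%) and in 41.1% of all genes with a window. The 4 stretches below are 60 bases from upstream of the start, with CHR matches in capitals, for mitosis genes whose means ran from -0.31 (Mki67) to -0.04 (Cdc20). Cdk1 lies at chr10:69352913-69352972, Cdc20 at chr4:118437344-118437403, Mki67 at chr7:135716444-135716503 and Top2a at chr11:99024190-99024249, all read on the minus strand, where these genes lie.
Cdk1: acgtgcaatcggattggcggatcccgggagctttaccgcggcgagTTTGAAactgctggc
Cdc20: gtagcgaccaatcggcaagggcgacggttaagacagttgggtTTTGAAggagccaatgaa
Mki67: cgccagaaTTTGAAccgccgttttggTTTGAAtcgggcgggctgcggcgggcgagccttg
Top2a: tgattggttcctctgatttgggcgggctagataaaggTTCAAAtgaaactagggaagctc
The 4 genes shown all had means below 0, but members with CHR letters did not share a sign. Aurka (0.07), Plk1 (0.11) and Ube2c (0.03) were among those above 0. The 15 members with CHR letters had a median log2 ratio of -0.09, with 10 below 0. The 19 without them had a median of -0.02, also with 10 below 0. A match is a description of these letters and not a measured binding site.

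Replication genes minus mitosis genes, as a difference of their medians, was 0.041 on the log2 scale over the pair means, and 0.03, 0.07 and 0.07 in pairs 1, 2 and 3. With 3 pairs an exact two-sided permutation test cannot go below a p of 0.25. The sign was not stable, since the difference was -0.034 with a loess span of 0.02, -0.032 with the scanner's processed signals, 0.0022 with the mean of all probes of a gene and 0.20 with median centring alone.

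Brightness moved with the ratios. Among all genes the median log2 ratio was -0.08 at a mean log2 intensity of 14 to 15, -0.07 at 15 to 16, 0.11 at 16 to 17 and 0.75 over 17, with a loess span of 0.3. Of the 9 members at 16 to 17, 7 were above 0, among them Pcna, Mcm6, Mcm7, Rrm2, Cdk4, Birc5 and Ube2c. With a span of 0.02, which follows the intensity more closely, 0 of these 9 were above 0 and their median was -0.12. Mcm7, the brightest member at 16.8, went from 0.05 to -0.27. In all, 8 members changed sign, these 7 and Cdc25a. Across the 44 members the ratio and the intensity correlated at r = 0.352 (Spearman's rho = 0.377) with a span of 0.3 and at r = 0.109 (rho = -0.0816) with a span of 0.02. Bub1 (-0.25), Mki67 (-0.26), Aurkb (-0.30), Mcm2 (-0.19), Ccne1 (0.29), Mcm5 (0.24) and Mybl2 (0.25) kept their sign with the narrower span, and none was called in either.

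**Figure D2:**
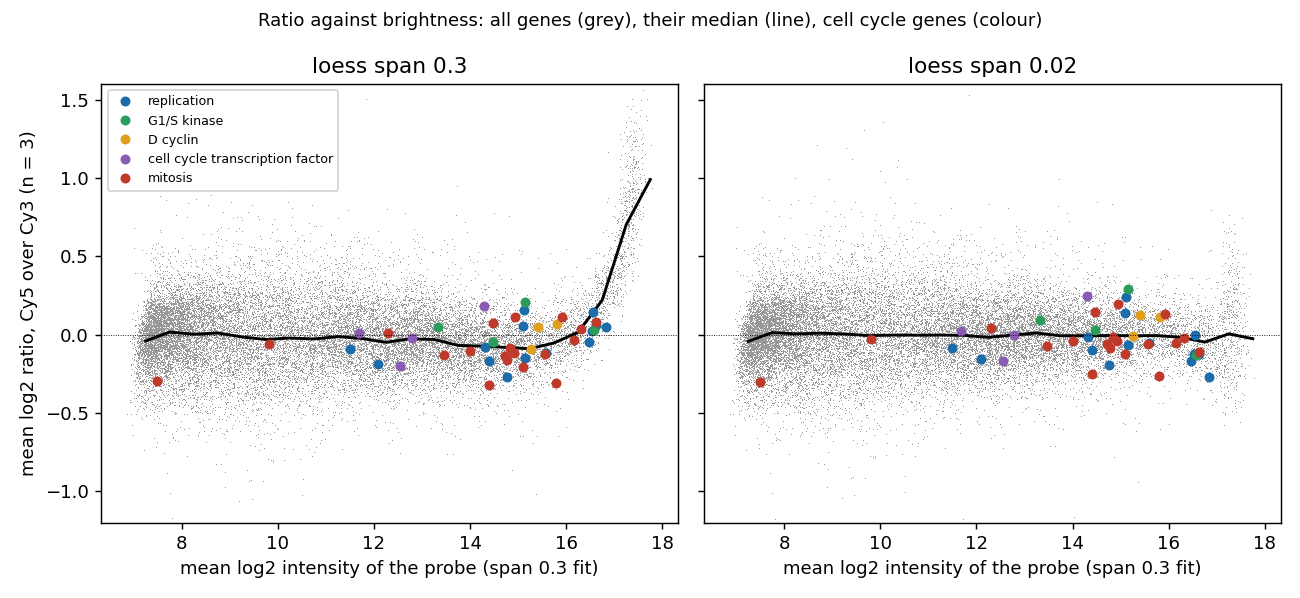
Mean log2 ratio of Cy5 over Cy3 (y axis, n = 3) against the probe's mean log2 intensity (x axis), with a loess span of 0.3 (left) and 0.02 (right). Grey points are all genes tested, the line is their median in bins of intensity and coloured points are the 44 members by role; at 16 to 17 on the x axis 7 of 9 members are above 0 on the left and 0 of 9 on the right.

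Several genes had more than 1 probe, which gives a second reading of the same RNA. Of 12 members with several probes above background, 5 had probe means on both sides of 0, namely Birc5, Ccnb1, Cdk1, Mybl2 and Ube2c. The probes of Mki67, Cdc6, Mcm3 (second probe at -0.07, -0.33 and -0.16), Ccnd3, Ccne1, Cdk4 and Foxm1 had means on 1 side. For Foxm1 this rests on a second probe with a mean of only -0.004. For Mki67, Cdc6 and Mcm3 every probe was below 0 in every pair. The sources used here do not give which part or isoform of a transcript each probe reads.

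**Figure D3:**
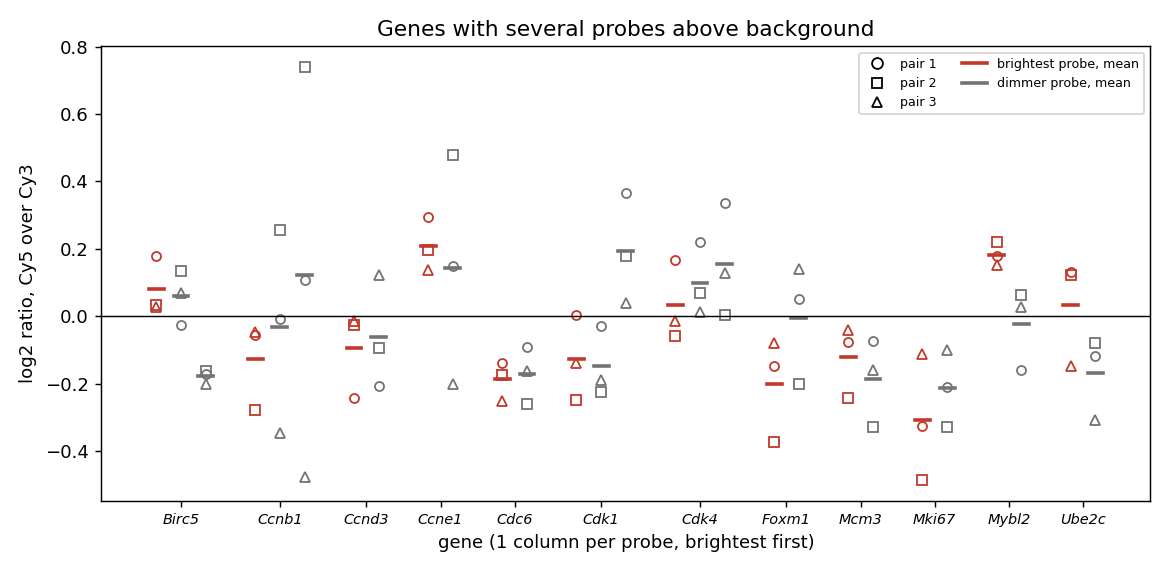
Log2 ratio of Cy5 over Cy3 (y axis) for every probe above background of the 12 members with several probes (x axis, brightest probe first), with 1 symbol per embryo pair and a line for the mean of the 3 pairs. In Birc5, Ccnb1, Cdk1, Mybl2 and Ube2c the lines of 1 gene lie on both sides of 0, and the dimmest Ccnb1 probe runs from -0.48 to 0.74.

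A wider set of genes of the same pathways was read beside the members. Of 45 further replication genes (origin recognition, polymerases, clamp loaders and histone chaperones) 26 were below 0 in all pairs and 1 above, with a median log2 ratio of -0.11. Of 54 further mitosis genes 53 were measured, 27 were below 0 in all pairs and 1 above, with a median of -0.13. Another list held 27 further genes of G1/S control and of the E2F and MuvB complexes. It also took in genes of the anaphase-promoting complex, and Cdk7 with its cyclin Ccnh. Of these 27 genes 14 were below 0 in all pairs and 1 above, with a median of -0.14. The medians of the mean ratios stayed below 0 for all 3 lists under every scaling tried. They were -0.06, -0.07 and -0.09 with a span of 0.02. With median centring they were -0.02, -0.09 and -0.14, beside -0.04 for all genes. That sign rested on pair 2, where the lists had medians of -0.33, -0.48 and -0.55. With median centring all 3 lists were above 0 in pair 1 (0.17, 0.09 and 0.07) and in pair 3 (0.05, 0.12 and 0.06). All genes had 0.05, -0.21 and 0.06 in pairs 1, 2 and 3. No gene of these lists passed the test in limma, and 20 of 125 (16%) reached an unadjusted p under 0.05, all with values below 0. Over all genes the share was 17.2% with both directions together, 1867 genes above 0 and 2051 below 0 of 22774. The lists' 16% was thus near the share for both directions but larger than that for values below 0 alone. In the 12 to 16 range of brightness 930 of 7332 genes reached it, both directions together. With a span of 0.02 the counts were 11 of 125 in the lists and 3357 of 22774 over all genes. The difference between these shares was not tested.

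Together 67 of these 125 genes (53.6%) were below 0 in all pairs, beside 23.6% of all genes. Among the 103 with a mean log2 intensity of 12 to 16 it was 58 (56.3%), beside 32.7% of all genes in that range. With a span of 0.02 the counts were 45 of 125 (36.0%), beside 21.1% of all genes, and 37 of 103 (35.9%), beside 21.9%. The members had 14 of 44 (31.8%) below 0 in all pairs with that span. With median centring 17 of the 125 genes (13.6%) and 3 of the 44 members (6.8%) were below 0 in all pairs, beside 19.1% of all genes. These shares are descriptions of lists chosen with earlier results known, and their difference was not tested.

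By the smallest unadjusted p, the replication genes named from this wider set were Timeless, which protects the fork (-0.26, -0.37 and -0.22), Pole2, a subunit of polymerase epsilon (-0.33, -0.20 and -0.28), and Pold3, a subunit of polymerase delta (-0.21, -0.49 and -0.24). The mitosis genes were Ckap2, a spindle protein, Nusap1, which bundles microtubules, and Kif15, a spindle kinesin. Ckap2 had ratios of -0.34, -0.42 and -0.35, a mean of -0.37 ± 0.08 (SE, n = 3) and the smallest adjusted p of the 3 lists (limma, 0.141). Nusap1 was at -0.33, -0.37 and -0.27 and Kif15 at -0.48, -0.96 and -0.15. The list with G1/S control gave Tfdp2, a dimer partner of E2F factors (-0.32, -0.41 and -0.25), and E2f6, a repressor of the E2F family (-0.22, -0.30 and -0.32). It also gave Ccnh, the cyclin of the kinase that activates other cyclin-dependent kinases (-0.25, -0.35 and -0.16). All 9 were below 0 in every pair, but they were picked by their p on these same arrays, which favours genes whose pairs agree. Their mean ratios kept that sign with a span of 0.02, with the processed signals and with median centring. These are other scalings of the same arrays and not further evidence. The mean of all probes gave -0.20 for Tfdp2, against -0.33 for its brightest probe.

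**Figure D4:**
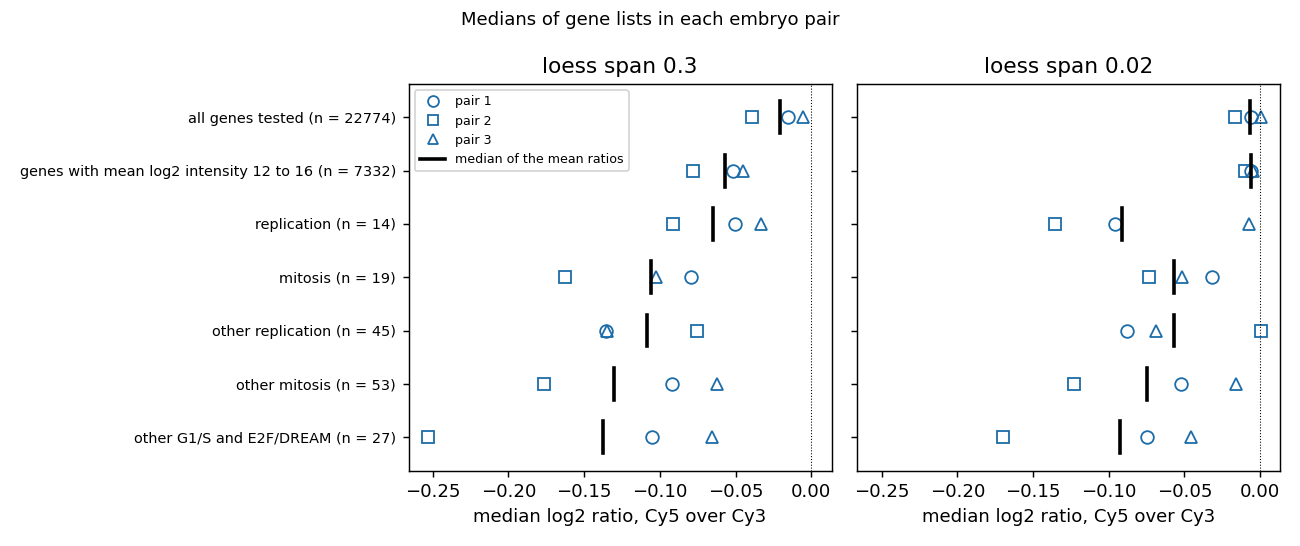
Median log2 ratio of Cy5 over Cy3 (x axis) for all genes, genes of intermediate brightness, the replication and mitosis members and the 3 wider lists (y axis, with the number of genes), with 1 symbol per embryo pair and a black line for the median of the mean ratios, at a loess span of 0.3 (left) and 0.02 (right). All black lines lie below 0 and those of the wider lists lie lowest at span 0.3, from -0.14 to -0.11; with median centring alone the replication and mitosis members had medians of 0.21 and 0.01 instead.

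Markers of tissues were read to see what else differed between the RNAs. All 4 markers were measured in each of 8 lists (neural plate, paraxial mesoderm and tail bud, heart muscle, primitive blood, endothelium, gut endoderm and notochord, yolk sac visceral endoderm and decidua), and 2 of 4 for trophoblast and placenta, where Tpbpa and Prl2c2 were not. Several medians lay farther from 0 than the members' did, and differently in each pair. The median of the decidua markers was -0.36, -0.55 and 0.49 in pairs 1, 2 and 3. These markers were Prl8a2, Cryab, Des and Bmp8a, and whether they read decidua alone was not tested. The median of the trophoblast markers was -0.95, -0.26 and 0.78, and that of the visceral endoderm markers -0.002, 0.52 and 0.66. The members' medians were -0.06, -0.06 and -0.04. Primitive blood markers had a median of -0.10, 0.93 and 1.16, and heart muscle markers -0.49, -0.45 and -0.28. Paraxial mesoderm and tail bud markers had 0.05, -0.02 and -0.51. In the limma test 1 heart muscle marker was called lower in Cy5 (adjusted p = 0.031). Called higher were 1 paraxial mesoderm and tail bud marker (0.037) and 1 primitive blood marker (0.041). Over all genes 1.38% were called, and 0 genes with a loess span of 0.02. The blood markers were very bright, with a median log2 intensity of 17.3, and the median of their mean ratios was 0.49. All 523 genes with an intensity over 17 had a median of 0.75. Not every blood marker was that bright, since the dimmest lay at 12.1, and medians by pair are not given for the bright genes. The part of brightness in the blood values was not tested. The part of these tissues in the members' values was not tested.

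The authors' deposited table lists 37 of the members' 61 probes, with adjusted p from 0.427 to 0.725, so none is called there either. It does not state its direction. Its ratios and the Cy5 over Cy3 means given here had r = -0.920 over 22165 probes, so the table runs as Cy3 over Cy5. Once turned, the 26 members whose brightest probe it lists all had the same sign as here, among them Aurkb, at -0.60 in the authors' deposited table. Both sets of ratios come from the same arrays, so the shared sign is not further evidence. The table's largest adjusted p is 0.75 (limma). Members whose brightest probe it leaves out include E2f1 (-0.02), E2f2 (0.008) and Rrm2 (0.02), whose means lie near 0.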

How the data were processed

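Feature Extraction 10.7.3.1 read the scans, per the file headers, and gives median intensity values of spots and of the background around them. The 3 arrays share a slide and a scan time, and no batch could be tested. The authors also deposited a table of log2 ratios and p-values for 40000 probes, made with limma per the submitters' processing notes, version not given. Here, background was corrected with normexp (offset 50) and loess (span 0.3) was run per array, control and outlier spots having weight 0. A probe needed signal well above background on 2 of 3 arrays in 1 channel (31603 of 55681 passed), and the brightest probe stood for a gene. RefSeq accessions named 27656 probes and deposited gene names 2721. Mean log2 ratios were tested against 0 with limma 3.58.1 in R 4.3.3 (two-sided, Benjamini-Hochberg over all genes), in a script tested on simulated data. Errors are moderated SEs, and the number of arrays limits precision. All 45 members are named, with Brpf1 and the 3 genes of smallest p in each wider list. The members and lists were chosen with earlier results of these data known. The alternatives were a loess span of 0.02, no background correction, the scanner's processed signals, median centring alone, no filter, the mean of a gene's probes and leaving out each pair.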

Additional observations from a re-analysis of the deposited data

How the results depend on the processing

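No member was called under any of the alternatives: a loess span of 0.02, no background correction, the scanner's processed signals, median centring without loess, no filter, the mean of all probes of a gene, and leaving out each pair. Genes called over all genes were 314 as reported, 0 with a span of 0.02 (3357 at an unadjusted p under 0.05 in limma), 0 with the processed signals (3301), 634 with median centring, 194 with the mean of probes, and 0 to 0 without 1 pair (2061 to 3628). The median log2 ratio of the replication members was -0.12 with the processed signals, 0.21 with median centring, and -0.0696 to -0.0262 without 1 pair. That of the mitosis members was -0.0569 with a span of 0.02, 0.00908 with median centring, and -0.122 to -0.0677 without 1 pair. The D cyclins' median was 0.30 with median centring and -0.13 to 0.10 without 1 pair. Replication minus mitosis was -0.0342 with a span of 0.02, -0.0319 with the processed signals, 0.200 with median centring, 0.00219 with the mean of probes, and 0.0199 to 0.0675 without 1 pair. Of 44 members, 8 changed sign with a span of 0.02, 9 with the processed signals, 13 with median centring, 2 with the mean of probes, 4 to 5 without 1 pair, and 0 with no background correction or no filter. Brpf1 was no longer called with a span of 0.02 (adjusted p = 0.272), the processed signals (0.240), the mean of probes (0.0564) or without 1 pair (0.0974 to 0.198; limma). The cause of these changes was not tested. The ratio within an array already pairs both RNAs, so no further replicate block was fitted.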
